A study of Homo sapiens with 24 samples.

Results

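Wnt signalling was described here through 9 genes: the ligand genes WNT5A, WNT5B and WNT7B, the secreted antagonist genes SFRP1, DKK1 and DKK3, the receptor gene FZD7, and LEF1 and AXIN2, which encode a nuclear effector and a feedback inhibitor of the pathway. The last 3 genes are neither ligands nor secreted antagonists and were kept as readers of the signal. Members were found by gene symbol, through the Ensembl identifier, among the 43037 genes of the expression table, and all 9 were present. They were followed in 4 established cell lines from glioblastoma, a malignant brain tumour (DBTRG-05MG, T98G, U251MG and U87MG). Every line was transduced either with a lentivirus carrying WWOX, a tumour suppressor gene at a chromosomal fragile site, behind a CMV promoter with GFP and a puromycin resistance gene (“WWOX” variant), or with Puro-Blank lentivirus (“Vec” variant, vec in the labels). Each of the 8 groups held 3 biological replicates, which gave 24 libraries. All 8 groups therefore carried a lentivirus, received polybrene and a multiplicity of infection of 1.5, and were selected with puromycin. Stable transductants were kept by antibiotic-based clone selection, so a “Vec” and a “WWOX” variant differ by WWOX and also by transduction and selection, which cannot be told apart here. Whether the 3 libraries of a group came from separate transductions is not given, and p-values measure only the spread between these libraries. T98G and DBTRG-05MG were grown in media of their own, and U251MG and U87MG shared one.

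Wnt proteins are secreted, lipid-modified ligands that bind Frizzled receptors together with LRP5 or LRP6 or with other co-receptors. In the canonical branch this stabilises beta-catenin, which enters the nucleus and activates target genes through TCF and LEF factors; in the non-canonical branch, of which WNT5A is the best known ligand, it guides cell polarity and movement without beta-catenin. SFRP proteins bind the ligands outside the cell, whereas DKK1 blocks the LRP co-receptors. Wnt signalling maintains neural progenitors in the developing brain and has been linked to stem-like growth and invasion in glioblastoma. The WWOX protein is known to bind Dishevelled, the adaptor downstream of Frizzled.

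Expression was measured by CAGE-Seq, which sequences the 5′ ends of capped transcripts and counts 1 tag per transcript end. Its unit, tags per 1000000 tags of the library (CPM), is therefore not scaled by transcript length. Levels of different genes may still differ by how their tags were assigned, which was not tested. The libraries held between 10756072 and 16953689 tags, so that 3 tags, taken as the detection floor, were worth 0.177 to 0.279 CPM. Differences were tested with limma on log2(scaled CPM + 0.5) in 1 model of the 8 groups, with Benjamini-Hochberg adjustment over the 12327 genes that reached 5 CPM in at least 1 library, and a gene was called at an adjusted p under 0.05. WWOX itself had mean levels from “Vec” to “WWOX” that differed on the log2 scale by 0.66 in U87MG, 0.39 in DBTRG-05MG, 0.38 in T98G and -0.0080 in U251MG (limma, Benjamini-Hochberg adjusted p = 0.136, 0.770, 0.553 and 1), so a higher WWOX level was not detectable by this test in any line. In U87MG the libraries of the variants were still separate for this gene, at 33.9 to 40.1 CPM in “Vec” and 60.98 to 65.96 CPM in “WWOX”. They were also separate in DBTRG-05MG (20.4 to 22.2 and 27.96 to 31.97 CPM) and overlapped in T98G and U251MG. DESeq2 called WWOX in U87MG (adjusted p = 0.0470), as did limma without U251MG “WWOX” replicate 1 (0.0462). CAGE reads the 5′ end, which in a transgene transcript lies in the vector, so these values may leave the transgene out and do not check the labels. In U251MG the sign turned to 0.0066 with the CPM as deposited. The “WWOX” replicates 2 and 1 of U251MG stood apart from their group (root mean square distances of 1.012 and 0.956 log2 units to the mean of the other 2 libraries, beside 0.328 to 0.768 in all other libraries). CD44 and VIM, which glioblastoma cells share with mesenchymal cells, were present in all 8 groups (group means of 807 to 2880 and 14.9 to 60.4 CPM). The astroglial gene GFAP and the stem cell gene SOX2 were not (1.99 to 2655 and 0.056 to 188 CPM). Of the other cell types, PTPRC, CD68, PECAM1, EPCAM and RBFOX3 stayed at or under 0.611 CPM in all groups, whereas the other 4 markers did not: KRT18 had group means of 0.162 to 1037 CPM, PDGFRB of 1.63 to 60.5 CPM, SNAP25 of 0.681 to 24.7 CPM and CDH5 of 0 to 8.26 CPM. The methods state that transduction was checked at the protein level by Western blot, which was not analysed here.

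RefSeq promoter windows (build GRCh38.p14, the 250 bases before a start site) were matched for 4 of the 9 genes, WNT5A, WNT5B, DKK1 and LEF1. The genes WNT7B, SFRP1, DKK3, FZD7 and AXIN2 were not matched. They were searched on both strands for CTTTGAT and CTTTGTT, core sequences bound by TCF and LEF factors, from 250 bases before to 50 bases after the start. Only the DKK1 window held one, and 7.61% of all 35116 windows in the table did. The motif match describes letters and no site. DKK1, a known target of the pathway that it inhibits, is shown with the match in capitals (CTTTGTT, its first base 76 bases before the start), beside the 2 WNT5A windows, which belong to alternative starts of that ligand gene.
DKK1, chr10:52314031-52314280, plus strand: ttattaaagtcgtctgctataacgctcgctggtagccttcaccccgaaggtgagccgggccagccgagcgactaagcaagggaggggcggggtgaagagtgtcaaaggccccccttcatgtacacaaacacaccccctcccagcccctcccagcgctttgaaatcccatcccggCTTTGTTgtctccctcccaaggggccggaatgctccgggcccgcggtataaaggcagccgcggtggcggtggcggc
WNT5A, chr3:55487307-55487556, minus strand: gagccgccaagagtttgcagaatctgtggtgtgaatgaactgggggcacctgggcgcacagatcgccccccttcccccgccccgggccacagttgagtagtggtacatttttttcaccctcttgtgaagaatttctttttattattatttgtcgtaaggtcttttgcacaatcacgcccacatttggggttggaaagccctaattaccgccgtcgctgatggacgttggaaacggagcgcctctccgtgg
WNT5A, chr3:55481399-55481648, minus strand: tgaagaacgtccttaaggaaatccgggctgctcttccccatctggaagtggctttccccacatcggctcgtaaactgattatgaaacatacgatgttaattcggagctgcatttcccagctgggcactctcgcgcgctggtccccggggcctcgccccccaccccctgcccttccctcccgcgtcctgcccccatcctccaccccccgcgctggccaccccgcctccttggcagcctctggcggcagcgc
GC content was 62.8% in the DKK1 window, 52.8% and 64.4% in the WNT5A windows, and 58.0% in the median window of the table.

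The “Vec” libraries were compared first, to show which Wnt genes each line uses without the WWOX virus. Each line had its own set. T98G had the highest WNT5A, WNT5B, FZD7 and LEF1, U87MG the highest WNT7B and AXIN2, U251MG the highest DKK1, and DBTRG-05MG the highest SFRP1 and DKK3 among the 4 “Vec” groups. The ratio of the highest to the lowest “Vec” mean was 48.2 for WNT5A, 35.96 for DKK1, 27.2 for DKK3, 13.7 for LEF1, 11.3 for FZD7, 6.28 for AXIN2 and 6.02 for WNT5B. No ratio is given for WNT7B, whose T98G mean was under the floor of 3 tags. Over the 6 pairs of lines, 37 of 54 member tests (68.5%) passed limma's test with Benjamini-Hochberg adjustment, beside 37.9% of the tests of all genes. The members were chosen with earlier results of these data known. WNT7B, WNT5B, SFRP1, DKK1 and AXIN2 also passed the filter only through lines where they were high. A higher share among the members could follow from this choice alone, and nothing is drawn from it. By pair, 7 of 9 members were called between U87MG and T98G (39.8% of all genes), U87MG and U251MG (38.6%), U87MG and DBTRG-05MG (44.1%) and T98G and DBTRG-05MG (41.2%), 5 between T98G and U251MG (32.3%) and 4 between U251MG and DBTRG-05MG (31.6%). The lines differ by origin and transduction, and all pairs but U87MG and U251MG also by medium. These cannot be told apart, nor can a smaller share of expressing cells and less RNA per cell.

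**Figure D1:**
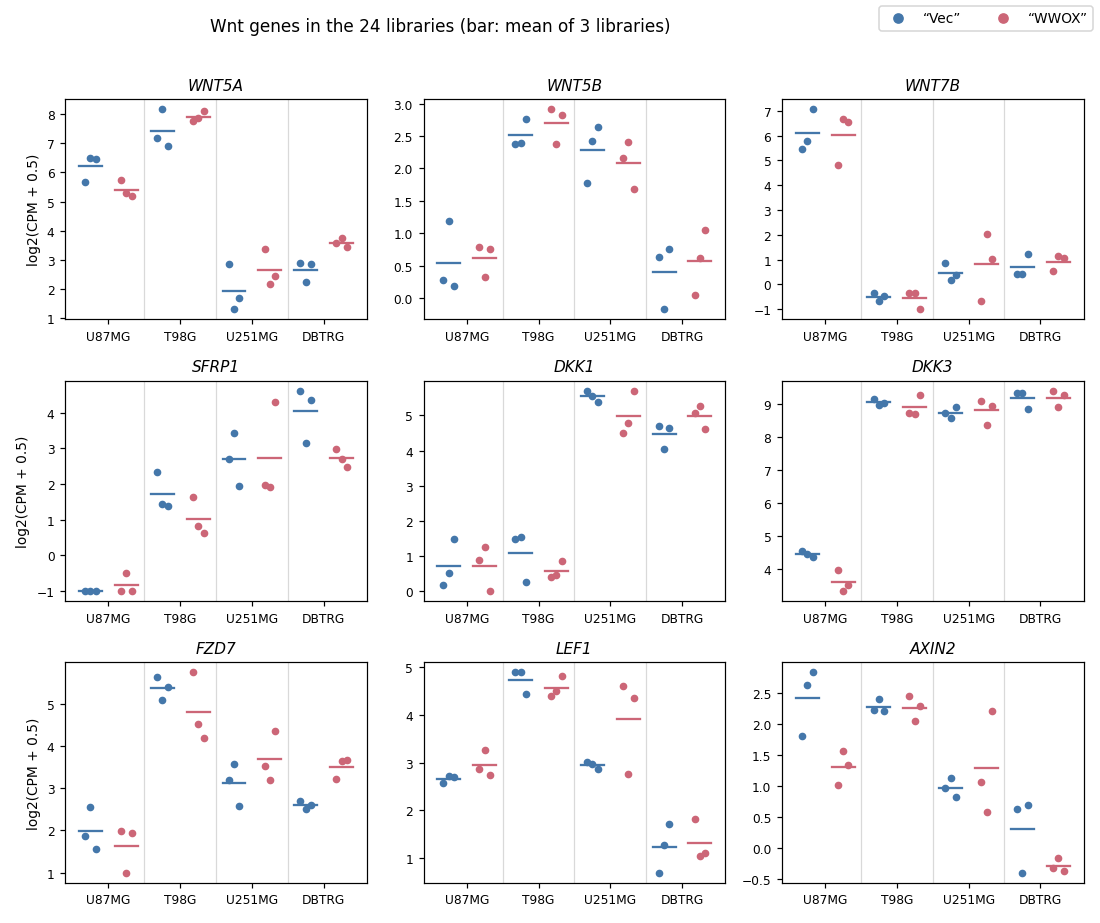
Expression of the 9 Wnt genes in the 24 libraries: the y axis is log2(CPM + 0.5) before scaling, each point is 1 library (blue “Vec”, red “WWOX”, 3 per group) and each bar is the group mean. WNT7B is high in U87MG only, DKK1 in U251MG and DBTRG-05MG, and DKK3 in every line except U87MG; within lines most “Vec” and “WWOX” points overlap.

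WNT5A (chromosome 3, 55465715 to 55490539 on the minus strand, hg38) had the highest mean CPM of all WNT ligands in 1 “Vec” group (T98G) and 3 “WWOX” groups (all but U87MG). In the “Vec” libraries it stood at 143.8, 288 and 120.3 CPM in T98G, and at 50.9, 89.5 and 86.98 CPM in U87MG. U251MG had 6.73, 1.99 and 2.746 CPM and DBTRG-05MG 6.94, 4.25 and 6.85 CPM. Every T98G library was above every U87MG library, and both lines were above U251MG and DBTRG-05MG, which overlapped. U87MG was 1.21 below T98G on the log2 scale (limma, adjusted p = 0.00782), a call lost without T98G “Vec” replicate 2 (-0.91, adjusted p = 0.0548) or U87MG “Vec” replicate 1 (-0.93, adjusted p = 0.0609). U251MG and DBTRG-05MG were not told apart (-0.66, adjusted p = 0.156), except without U251MG “Vec” replicate 1 (-1.13, adjusted p = 0.0116).

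WNT7B (chromosome 22, 45920366 to 45977162, minus strand), which encodes a ligand that mostly acts through beta-catenin, was a gene of U87MG. Its “Vec” libraries had 43.8, 54.7 and 134 CPM there, and 0.28, 0.13 and 0.23 CPM in T98G. U251MG had 1.30, 0.64 and 0.80 CPM and DBTRG-05MG 0.85, 0.84 and 1.84 CPM. No U87MG library came near those of the other lines, and the T98G libraries were at or near the floor. U87MG was higher than T98G by 6.68, than U251MG by 5.78 and than DBTRG-05MG by 5.61 on the log2 scale (limma, adjusted p = 1.73e-09, 1.73e-08 and 2.69e-08). WNT7B passed the filter on low values only through U87MG, so its call against the other lines followed from the filter as well.

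WNT5B (chromosome 12, 1529891 to 1647212, plus strand), a close relative of WNT5A, stayed low everywhere. The “Vec” means were 5.26 ± 0.906 CPM in T98G and 4.51 ± 1.45 CPM in U251MG, against 1.04 ± 0.640 CPM in U87MG and 0.873 ± 0.427 CPM in DBTRG-05MG (SD, n = 3 each). T98G and U251MG overlapped, as did U87MG and DBTRG-05MG, and all 4 tests between these pairs of lines were called (limma, adjusted p between 2.72e-05 and 0.00128). Only 4 of the 24 libraries reached 5 CPM, all of T98G or U251MG, so WNT5B entered the test through the lines where it was high.

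The make-up of all WNT ligand tags gives the same levels as shares over 19 ligand genes, of which 6 reached the tested level and 6 had no more than 3 tags in any library. In U87MG “Vec”, WNT5A held 50.8% ± 11.03 and WNT7B 47.5% ± 11.6 of the ligand tags (SD, n = 3). In T98G “Vec”, WNT5A alone held 91.6% ± 5.36. U251MG had few ligand tags in all, 12.8 ± 0.842 CPM summed, with WNT5B at 35.7% ± 12.6 and WNT5A at 29.2% ± 17.7, which overlapped. In DBTRG-05MG “Vec” the leading ligand was not a member of the panel but WNT7A, a relative of WNT7B, at 51.1% ± 7.47, and WNT5A held 10.8% ± 1.91.

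**Figure D2:**
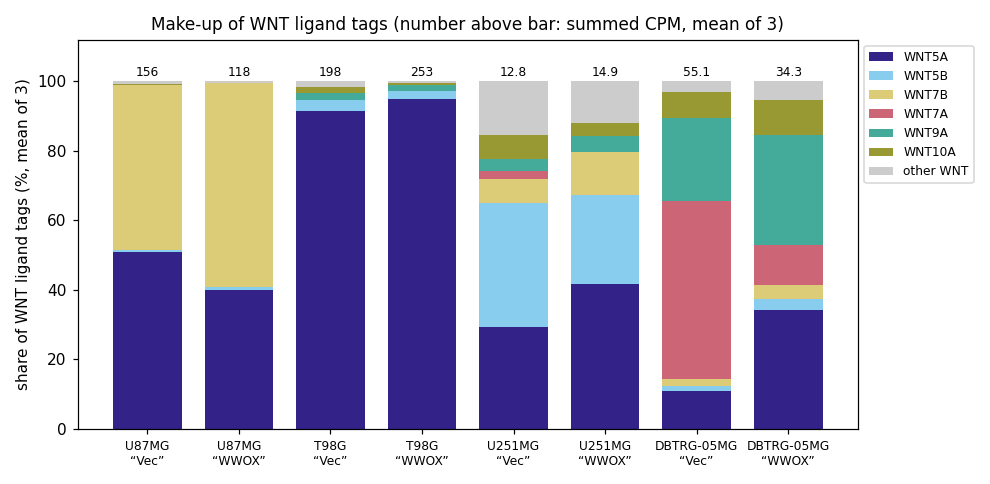
Shares of the WNT ligand tags by gene in the 8 groups: the y axis is the percent of all tags of the 19 WNT genes, as the mean of 3 libraries, and the number above a bar is the summed CPM. WNT5A and WNT7B fill the U87MG bars and WNT5A the T98G bars; in DBTRG-05MG the WNT7A share is 51.1% in “Vec” and 11.6% in “WWOX”.

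Of the secreted antagonists, DKK3 (chromosome 11, 11956207 to 12009769, minus strand) had by far the most tags in each “Vec” group. DKK3 is a divergent member of the Dickkopf family, does not bind the LRP co-receptors as DKK1 does, and is often silenced in tumours. The “Vec” libraries had 563, 500.3 and 517 CPM in T98G, 418, 382 and 482 CPM in U251MG, and 646, 641 and 461 CPM in DBTRG-05MG. In U87MG they had 22.7, 21.4 and 20.3 CPM. Only U87MG stood apart. Its log2 level minus that of T98G, U251MG and DBTRG-05MG was -4.58, -4.11 and -4.500 (limma, adjusted p = 2.21e-13, 1.23e-12 and 2.45e-13), and none of the other 3 pairs was called. DKK3 took 84.1% ± 0.588 of the tags of the 13 secreted antagonist genes in U87MG “Vec” and 87.6% to 97.2% in the “Vec” groups of the other lines.

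DKK1 (chromosome 10, 52314281 to 52318042, plus strand) split the lines into pairs. The “Vec” libraries had 51.6, 46.4 and 41.5 CPM in U251MG and 25.3, 16.1 and 24.6 CPM in DBTRG-05MG. T98G had 2.32, 2.44 and 0.70 CPM and U87MG 0.64, 0.93 and 2.31 CPM. The first pair of lines did not overlap with the second, while U87MG and T98G overlapped and did not differ by the test (-0.37, adjusted p = 0.463). U251MG exceeded DBTRG-05MG by 1.14 (limma, adjusted p = 0.0238), a call lost without DBTRG-05MG “Vec” replicate 2 (adjusted p = 0.0963) or 3 (0.0502) or U251MG “Vec” replicate 1 (0.0828), with a pseudocount of 0.1 (0.0572) and with the replicate number as a block (0.0720).

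SFRP1 (chromosome 8, 41261962 to 41309473, minus strand), a Frizzled-related protein that binds Wnt ligands, was not detected in U87MG “Vec”, with 0 tags in all 3 libraries. DBTRG-05MG “Vec” had 24.0, 8.31 and 20.1 CPM, U251MG 5.9998, 10.3 and 3.35 CPM, and T98G 4.57, 2.19 and 2.10 CPM. Against 3 tags per library in U87MG, the mean was at least 75.3-fold higher in DBTRG-05MG, at least 28.2-fold higher in U251MG and at least 12.7-fold higher in T98G. DBTRG-05MG and U251MG overlapped in 1 library each, and their difference (U251MG lower by 1.30, limma, adjusted p = 0.0406) was lost without DBTRG-05MG “Vec” replicate 1 (0.178) or 3 (0.118) or U251MG “Vec” replicate 1 (0.0791) or 3 (0.200). It was also lost in 6 of the other settings (adjusted p of 0.0521 to 0.0859). SFRP1 reached 5 CPM in 9 of 24 libraries, all of U251MG or DBTRG-05MG, so it too entered the test through lines where it was high.

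FZD7 (chromosome 2, 202033855 to 202038441, plus strand), a Frizzled receptor of canonical signalling in stem-like cells, had 49.0, 33.6 and 42.0 CPM in the “Vec” libraries of T98G. The other “Vec” means were 8.52 ± 3.02 CPM in U251MG, 5.59 ± 0.436 CPM in DBTRG-05MG and 3.66 ± 1.55 CPM in U87MG (SD, n = 3). T98G was above U251MG by 2.42 and DBTRG-05MG by 2.98 on the log2 scale, and U87MG minus T98G was -3.39 (limma, adjusted p of 2.18e-07 to 3.36e-05), and the other 3 overlapped from neighbour to neighbour. The nearest of their differences to a call was U87MG below U251MG by 0.97 (adjusted p = 0.0536), which passed in 2 other settings and without any 1 of 5 libraries (T98G “WWOX” replicate 1 or 3, U87MG “Vec” replicate 2, U87MG “WWOX” replicate 2 or U251MG “Vec” replicate 3), with adjusted p from 0.0243 to 0.0498.

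LEF1 (chromosome 4, 108047545 to 108168956, minus strand), a DNA-binding partner of beta-catenin and itself a target gene, had 29.2, 29.2 and 21.3 CPM in T98G “Vec”. The other “Vec” means were 7.24 ± 0.435 CPM in U251MG, 5.84 ± 0.334 CPM in U87MG and 1.94 ± 0.827 CPM in DBTRG-05MG. The libraries of these 4 groups did not overlap, yet U87MG and U251MG did not differ on the scaled log2 values (-0.13, limma, adjusted p = 0.773), and the other 5 pairs were called. AXIN2 (chromosome 17, 65528563 to 65561648, minus strand), a scaffold of the beta-catenin destruction complex that Wnt signalling induces, ran from 5.07 ± 1.87 CPM in U87MG and 4.34 ± 0.361 CPM in T98G to 1.47 ± 0.199 CPM in U251MG and 0.808 ± 0.478 CPM in DBTRG-05MG (“Vec”, SD, n = 3). U87MG and T98G overlapped, and both exceeded U251MG and DBTRG-05MG (limma, adjusted p of 3.09e-06 to 0.00104). AXIN2 reached 5 CPM only in 2 U87MG “Vec” libraries, so it entered these tests through a group where it was high. DBTRG-05MG thus had the lowest “Vec” mean of both target genes.

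Some of these genes overlap others on the opposite strand: DKK3 with USP47, DKK1 with PRKG1-AS1, WNT5B with FBXL14, WNT5A with WNT5A-AS1, LEF1 with LEF1-AS1, and SFRP1 with RPS29P2 and RNU6-895P. On the same strand, SFRP1 overlaps MIR548AO and an unnamed gene, and AXIN2 overlaps an unnamed gene. Neither counting by strand nor the handling of same-strand overlaps is given in the sources used here. Tags of these partners may therefore stand in the members' values.

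“WWOX” and “Vec” were then compared within each line, which asks how the panel differs between the variants. In U87MG, DKK3 and AXIN2 fell and no member rose. The call of 2 of 9 members there stands beside 3.2% of all genes called. In T98G (1.14% of all genes called), U251MG (0.316%) and DBTRG-05MG (1.02%) no member passed limma's test. At an unadjusted p under 0.05 there were 3 members each in U87MG and DBTRG-05MG, 1 in U251MG and 0 in T98G. Of the 12327 genes tested, 1417 were under this level in U87MG, 941 in DBTRG-05MG, 1423 in U251MG and 1415 in T98G. edgeR and limma-voom on the recovered tags called no member in T98G, U251MG or DBTRG-05MG, and DESeq2 called 1, LEF1 in U251MG. The scaled libraries of the 2 variants were separate for 3 members in DBTRG-05MG (19.7% of all genes), 3 in U87MG (17.5%), 1 in U251MG (10.4%) and 0 in T98G (16.2%).

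**Figure D3:**
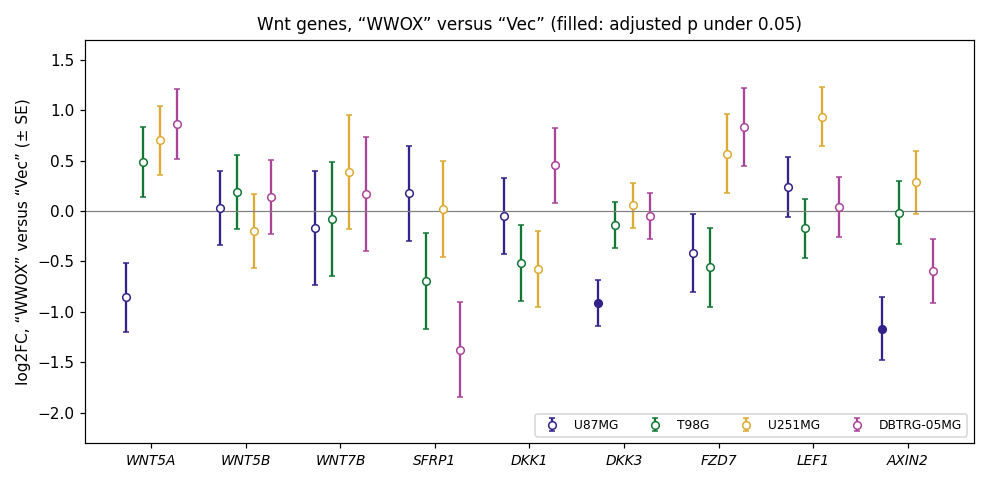
Log2 fold changes of the 9 Wnt genes, “WWOX” versus “Vec”, in the 4 lines: points are limma estimates, bars are ± 1 SE, and filled points have an adjusted p under 0.05. DKK3 (-0.91) and AXIN2 (-1.17) in U87MG are the filled points, and WNT5A lies below 0 in U87MG and above 0 in the other 3 lines.

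DKK3 in U87MG went from 22.7, 21.4 and 20.3 CPM in “Vec” to 15.1, 9.57 and 11.01 CPM in “WWOX”. Every “WWOX” library was below every “Vec” library. It fell by 0.91 on the log2 scale (SE 0.227, limma, adjusted p = 0.0249). The call was lost without U87MG “Vec” replicate 1 (adjusted p = 0.0728) or 2 (0.103), or without U87MG “WWOX” replicate 2 (0.152) or 3 (0.0818), and in a separate model of U87MG (0.121), while the estimate stayed between -1.06 and -0.79. In the other 3 lines DKK3, at 329 to 674 CPM in each library, had estimates of -0.14 (T98G), 0.06 (U251MG) and -0.05 (DBTRG-05MG). The log2 fold change of DKK3 in U87MG minus the mean of the other 3 lines was -0.87 (SE 0.263, adjusted p = 0.103). This difference was not called by limma and was called by DESeq2 (-0.88, adjusted p = 0.0397).

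AXIN2 in U87MG went from 2.98, 5.64 and 6.59 CPM to 1.53, 2.44 and 2.03 CPM. The groups did not overlap, with “Vec” replicate 1 nearest to the “WWOX” libraries. AXIN2 fell by 1.17 on the log2 scale (SE 0.314, limma, adjusted p = 0.0409). AXIN2 reached 5 CPM only in 2 of the U87MG “Vec” libraries, so it entered the test through the group where it was high. Its call was lost in 7 other settings (adjusted p of 0.0768 to 0.197, among them edgeR, limma-voom, a pseudocount of 0.1 and no filter), and AXIN2 was not tested at a mean of at least 5 CPM. It was lost without U87MG “Vec” replicate 2 (0.195) or 3 (0.219), without U87MG “WWOX” replicate 1 (0.206), 2 (0.0570) or 3 (0.0904), and without any 1 of 7 libraries of other lines (T98G “Vec” replicate 1, T98G “WWOX” replicate 3, U251MG “Vec” replicate 1 or 3, or any DBTRG-05MG “WWOX” library, with adjusted p of 0.0503 to 0.0544). In DBTRG-05MG AXIN2 had 1.05, 0.26 and 1.12 CPM in “Vec” and 0.29, 0.39 and 0.27 CPM in “WWOX” (-0.59, adjusted p = 0.717), with overlap.

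WNT5A had estimates of both signs among the lines. In U87MG it had 50.9, 89.5 and 86.98 CPM in “Vec” and 53.4, 38.9 and 35.9 CPM in “WWOX”, which overlapped in CPM and were separate after scaling. In DBTRG-05MG it had 6.94, 4.25 and 6.85 CPM in “Vec” and 11.4, 13.1 and 10.5 CPM in “WWOX”, with no overlap. T98G “WWOX” had 215, 234 and 272 CPM and U251MG “WWOX” 9.88, 4.08 and 5.00 CPM, both overlapping their “Vec” libraries. No single line gave a call: the estimates were -0.86 in U87MG (adjusted p = 0.272) and, above 0, 0.86 in DBTRG-05MG (adjusted p = 0.465), 0.70 in U251MG and 0.49 in T98G.

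The difference between the U87MG estimate of WNT5A and the mean of the other 3 was -1.54 (SE 0.400, limma, adjusted p = 0.0416), the only call among the 36 such tests of the members (2.39% of all genes for this line, 1.54% for T98G, 0.422% for U251MG, 0.982% for DBTRG-05MG and 1.33% over the 4 lines). It was lost with no filter (adjusted p = 0.0544), when a mean of 5 CPM was asked for (0.0635), with unscaled CPM (0.0886) and by edgeR (0.0667), and kept by limma-voom (0.0211) and DESeq2 (0.0111). It was also lost without any 1 of 16 libraries (U87MG “Vec” replicate 2 or 3, the 3 U87MG “WWOX” libraries, T98G “Vec” replicate 1 or 3, the 3 T98G “WWOX” libraries, U251MG “Vec” replicate 3, DBTRG-05MG “Vec” replicate 2 or 3 and the 3 DBTRG-05MG “WWOX” libraries), with adjusted p from 0.0508 to 0.179 and estimates from -1.79 to -1.37 over all libraries left out.

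LEF1 in U251MG had 7.62, 7.32 and 6.76 CPM in “Vec” and 23.8, 6.29 and 19.95 CPM in “WWOX”. Replicate 2 of “WWOX”, the library farthest from its group, lay with the “Vec” libraries and the other 2 lay well above. In the same “WWOX” libraries WWOX had 56.7, 17.4 and 38.0 CPM, with replicate 2 below every “Vec” library (31.4 to 36.8 CPM). Whether the LEF1 level followed that of WWOX was not tested. The LEF1 estimate of 0.94 was not called by limma (adjusted p = 0.194) and was called by DESeq2 (1.10, adjusted p = 0.0368). Without U251MG “WWOX” replicate 2 it was 1.29 (limma, adjusted p = 0.0150), and the difference of U251MG from the other lines was then 1.26 (adjusted p = 0.0437) in place of 0.90 (0.275). In the other lines the estimates for LEF1 were 0.24 (U87MG), -0.17 (T98G) and 0.04 (DBTRG-05MG).

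SFRP1 and FZD7 had separate libraries in DBTRG-05MG without a call. SFRP1 had 24.0, 8.31 and 20.1 CPM in “Vec” and 7.43, 6.03 and 5.00 CPM in “WWOX” (-1.37, limma, adjusted p = 0.299). FZD7 had 6.02, 5.15 and 5.60 CPM in “Vec” and 8.73, 11.9 and 12.1 CPM in “WWOX” (0.83, adjusted p = 0.630). The “WWOX” libraries were lower for SFRP1 and higher for FZD7 in each case. In T98G the 2 genes had estimates of -0.70 and -0.56 with overlapping libraries, and in U251MG 0.02 and 0.57. SFRP1 in U251MG “WWOX” ran from 3.29 to 19.0 CPM, with the highest value in replicate 3.

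The other members gave small or unstable differences. DKK1 had estimates of 0.45 in DBTRG-05MG, -0.05 in U87MG, -0.52 in T98G and -0.58 in U251MG, none called. In U251MG its “WWOX” libraries had 22.0, 26.8 and 51.1 CPM, of which replicate 3 lay within the “Vec” range. WNT7B in U87MG had 27.5, 100.5 and 92.8 CPM in “WWOX”, which spanned most of the “Vec” range (-0.17). WNT5B lay between -0.20 and 0.19 in the 4 lines. Averaged over the 4 lines, no member was called by limma, edgeR, limma-voom or DESeq2 (1.78% of all genes by limma). An unadjusted p under 0.05 was reached by 2 members, DKK3 (-0.26) and AXIN2 (-0.37), and by 1900 of the 12327 genes tested.

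Each gene's chromosome was followed as background for the within-line estimates. The median log2 fold change of the tested genes on chromosome 11 (DKK3) and 17 (AXIN2) stood -0.01 and -0.07 from that of all genes in U87MG. The widest such shift was on chromosome 17 in T98G (-0.31), where AXIN2 had an estimate of -0.02. In DBTRG-05MG chromosomes 10, 12, 4, 2 and 8, which hold DKK1, WNT5B, LEF1, FZD7 and SFRP1, were shifted by 0.20, -0.20, 0.17, 0.16 and -0.15. The summed level of the 7 glial or stem cell markers in U87MG was 737 to 1060 CPM in “Vec” and 738 to 1031 CPM in “WWOX”. That of the 9 markers of other cell types was 22.9 to 51.7 and 31.0 to 40.4 CPM, so both overlapped between the variants there. In T98G the glial or stem cell sum was 1646 to 2106 CPM in “Vec” and 1256 to 1341 CPM in “WWOX”, with no overlap, and PDGFRB, a pericyte marker, had means of 60.5 and 32.4 CPM. Most of the glial or stem cell sum was CD44, itself a gene of the Wnt list. Its “Vec” and “WWOX” means were 807 and 817 CPM in U87MG and 1789 and 1274 CPM in T98G. In DBTRG-05MG the sum of the other cell types was 919 to 1271 CPM in “Vec” and 509 to 744 CPM in “WWOX”, with no overlap, most of it the epithelial keratin gene KRT18 (means of 1037 and 637 CPM), while the neuronal SNAP25 had 10.6 and 13.0 CPM. In U251MG the glial or stem cell sum was 3816 to 5261 CPM in “Vec” and 1585 to 5686 CPM in “WWOX”, where GFAP ran from 114 to 3226 CPM. The sum of the other cell types there was 44.6 to 90.9 and 42.9 to 105 CPM, so both sums overlapped. The part of these markers in the values of T98G, U251MG and DBTRG-05MG was not tested.

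The wider pathway was taken as a list of 95 Wnt genes, which includes the 9 members, and 66 of them were tested. In U87MG 3 of the 66 rose and 4 fell (3.2% of all genes called), among them the members DKK3 and AXIN2. In T98G 1 rose and 1 fell (1.14%), in DBTRG-05MG 1 fell (1.02%), and in U251MG (0.316%) none passed limma's test. At an unadjusted p under 0.05 there were 9 of the 66 in U251MG, beside 1423 of the 12327 genes tested. By edgeR and limma-voom 0 were called there, and by DESeq2 1. The median log2 fold change of the list was 0.08 in U251MG, -0.04 in U87MG, -0.07 in DBTRG-05MG and -0.15 in T98G, beside 0, -0.0048, 0.0036 and -0.04 over all genes tested.

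Among the secreted antagonists, SFRP2, a Frizzled-related protein like SFRP1, rose in U87MG. It had 3.05, 3.01 and 1.12 CPM in “Vec” and 18.5, 18.7 and 16.9 CPM in “WWOX” (2.72, SE 0.294, limma, adjusted p = 1.34e-06). The groups lay far apart, and the call held in every setting that tested SFRP2, with and without each library. The share of SFRP2 among the antagonist tags of U87MG was 9.27% ± 3.98 in “Vec” and 56.5% ± 4.34 in “WWOX”, while that of DKK3 was 84.1% ± 0.588 and 36.9% ± 5.74 (SD, n = 3), with no overlap for either. These shares are parts of the same sum, so the rise of SFRP2 by itself lowers the share of DKK3. SFRP2 was at most 1.90 CPM in any library of the other lines and entered the test through U87MG “WWOX”. SOST, which encodes the LRP inhibitor sclerostin, rose in T98G from 3.80, 14.2 and 1.48 CPM to 14.7, 24.2 and 27.5 CPM (2.15, limma, adjusted p = 0.00485). Its groups were separated by a narrow gap, and the call was lost by edgeR (1.85, 0.266), DESeq2 (1.90, 0.884) and a separate model of T98G (0.314).

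Of the ligands, WNT7A, a relative of WNT7B, fell in DBTRG-05MG. It had 25.2, 29.0 and 29.6 CPM in “Vec” and 4.19, 3.76 and 3.84 CPM in “WWOX” (fell by 2.73 on the log2 scale, SE 0.239, limma, adjusted p = 3.01e-07). The call held in every setting that tested WNT7A, with and without each library. WNT7A reached 5 CPM only in the DBTRG-05MG “Vec” libraries and was at most 0.80 CPM in any library of the other lines. In the same libraries the WNT5A share of ligand tags was 10.8% ± 1.91 in “Vec” and 34.2% ± 3.08 in “WWOX”, with no overlap, and the summed ligand level was 55.1 ± 4.89 and 34.3 ± 4.52 CPM. The fall of WNT7A by itself raises the share of WNT5A.

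Upstream and downstream of the members, U87MG changed at several further genes. RSPO3, a secreted amplifier of Wnt signals, rose from 5.33, 8.81 and 3.998 CPM to 24.8, 21.2 and 8.98 CPM (1.42, limma, adjusted p = 0.00444), and lost its call by edgeR (0.129), DESeq2 (0.0966), with a pseudocount of 0.1 (0.0626), in a separate model (0.299) and without U87MG “Vec” replicate 3 (1.13, 0.0532). PTK7, a Wnt co-receptor, fell from 27.4, 37.5 and 22.6 CPM to 7.34, 8.42 and 10.8 CPM (-1.72, adjusted p = 0.000807), and lost its call only in the separate model (0.0666). TLE1, a corepressor that binds TCF and LEF factors, rose from 24.6, 24.4 and 29.7 CPM to 78.7, 92.3 and 84.7 CPM (1.62, adjusted p = 0.000343), a call kept in all settings.

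CTNNBIP1, which blocks the binding of beta-catenin to TCF factors, fell in U87MG from 14.98, 22.9 and 26.9 CPM to 4.28, 8.55 and 14.7 CPM (-1.37, limma, adjusted p = 0.0213). Its groups nearly touched, and the call was lost by edgeR (0.0557), in the separate model (0.320) and without U87MG “Vec” replicate 2 (0.110) or 3 (0.121) or U87MG “WWOX” replicate 1 (-0.91, 0.181) or 2 (0.0576). NKD2, a Dishevelled inhibitor, fell in T98G from 5.55, 4.89 and 4.98 CPM to 3.35, 2.89 and 1.65 CPM (-0.90, adjusted p = 0.0360). It entered the test through 1 “Vec” library, lost the call in 6 other settings (adjusted p of 0.141 to 0.468), and lost it without T98G “Vec” replicate 3 (0.150), T98G “WWOX” replicate 2 (0.0536) or 3 (0.316), U87MG “WWOX” replicate 2 (0.0509) or U251MG “Vec” replicate 3 (0.0509).

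**Figure D4:**
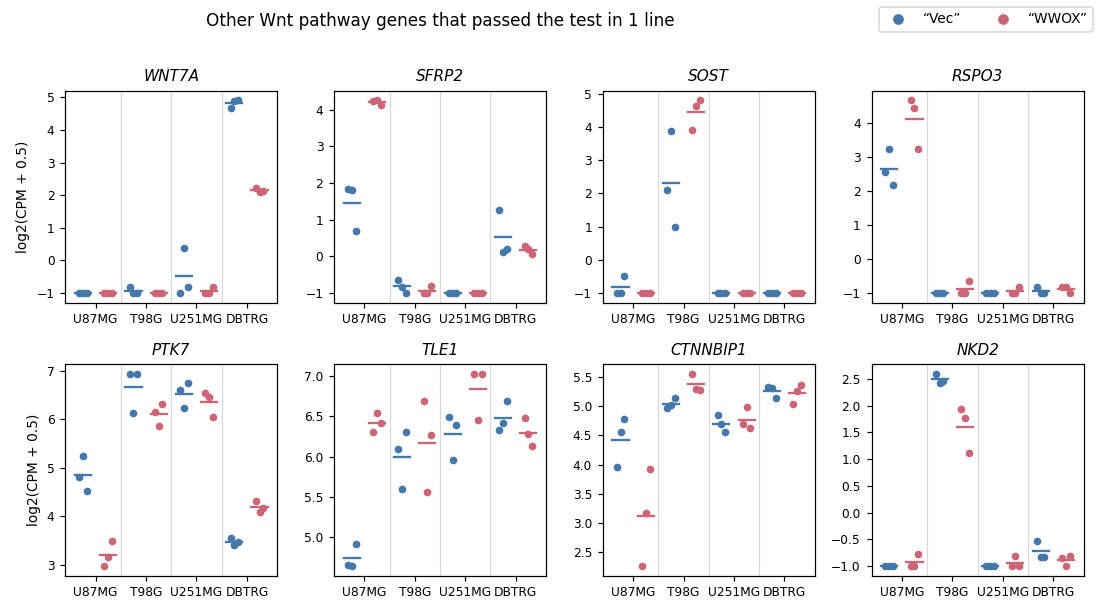
The 8 further Wnt pathway genes that passed the test in 1 line: the y axis is log2(CPM + 0.5) before scaling, each point is 1 library (blue “Vec”, red “WWOX”, 3 per group) and each bar is the group mean. WNT7A falls in DBTRG-05MG, SFRP2 and TLE1 rise in U87MG, and WNT7A, SFRP2, SOST, RSPO3 and NKD2 lie at or near the floor in most other groups.

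All 10 cytoplasmic and 13 nuclear genes of the list reached the tested level, against 6 of 19 ligand and 7 of 13 antagonist genes. Over the 12 “Vec” libraries the cytoplasmic and nuclear genes were led by means of 151 CPM for CTNNB1 (beta-catenin) and 88.7 CPM for CSNK1A1 (casein kinase 1 alpha), and of 93.6 CPM for BCL9L and 64.7 CPM for TLE1. The ligand secretion genes WLS and PORCN had 33.6 and 30.0 CPM. Of the 18 receptor genes 15 were tested, led by PTK7 (59.3 CPM) and LRP5 (27.5 CPM, with 0.0962 CPM in U87MG “Vec”). Of the 9 R-spondin genes and their receptors 4 were tested, led by ZNRF3 (6.85 CPM) and LGR4 (4.44 CPM). Among the targets CD44 had 1744 CPM and CCND1 141 CPM, far above AXIN2.

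The tested genes whose log2 levels followed each member most closely over the 24 libraries were listed by Pearson's r. These r values rest mainly on the 4 lines, since libraries of 1 line share a genome, and describe likeness only. They were EYA1 (0.958), PAMR1 (0.956) and VAV3 (0.954) for WNT5A, STING1 (0.930), PLEKHA4 (0.930) and EYA2 (0.927) for WNT5B, and ANKRD35 (0.978), LRRC8E (0.969) and HAS1 (0.963) for WNT7B. The antagonists were followed by JUP (0.949), HOXB13 (0.938) and IGF1R (0.936) for SFRP1, RIPOR2 (0.979), RHOJ (0.978) and KIRREL3 (0.977) for DKK1, and NBPF15 (0.990), ZNF320 (0.986) and ZNF875 (0.985) for DKK3. The nearest were SOBP (0.944), ARHGEF17 (0.924) and SELENBP1 (0.921) for FZD7, C21orf91 (0.944), CNRIP1 (0.943) and FGF13 (0.942) for LEF1, and AP3B2 (0.921), SSBP3 (0.904) and LPP-AS2 (0.902) for AXIN2. Between members, the lowest r were those of DKK3 and WNT7B (-0.96) and of DKK1 and WNT5A (-0.90). The highest were those of DKK3 and SFRP1 (0.82), DKK1 and SFRP1 (0.77) and AXIN2 and LEF1 (0.77). DKK1 had an r of -0.71 with AXIN2 and -0.50 with LEF1.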

How the data were processed

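CAGE-Seq libraries of total RNA (24, 3 per group) were made by the authors with random-primed reverse transcription and cap-trapping, mapped to hg38 with STAR and counted per gene. Per the labels and the methods, SAMtools, Rsamtools and limma 3.42 were also used. The deposited values are CPM, tags of a gene per 1000000 tags of its library. The values came back as whole tags in 100% of cases (tolerance 0.001 tags), and per-sample and joint tables held identical values. Of 43037 genes, 43033 had a symbol. Gene positions are from GENCODE annotation of hg38, promoters from RefSeq (GRCh38.p14).

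CPM were scaled by an unweighted trimmed mean of M values (30% of M, 5% of A trimmed; factors 0.798 to 1.22), and log2(scaled CPM + 0.5) of the 12327 genes that reached 5 CPM in 1 library or more was fitted with limma 3.58.1 (trend, 8 groups, 16 residual degrees of freedom) in R 4.3.3, two-sided, Benjamini-Hochberg over all genes. Fold changes are on this log2 scale, which understates those of low genes. Contrasts were “WWOX” minus “Vec” per line, their mean, each line minus the mean of the other 3, and the 6 pairs of “Vec” groups. Alternatives were pseudocounts of 0.1 and 1, no filter, a filter at a mean of 5 CPM, unscaled CPM, scaling by the median of ratios, a model per line, a replicate block, edgeR 4.0.16 quasi-likelihood, limma-voom and DESeq2 1.42.0 on the recovered tags, and leaving out each library. The fitting was tested on counts simulated for U87MG, where it called 16 of 100 genes changed 2-fold and 84 of 100 changed 4-fold. Of its 107 calls 7 were false. A gene that was not called may therefore still have changed 2-fold. Floors cover counting error only.

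The members and the Wnt list were chosen with earlier results of these data known. Besides members and WWOX, the text names up to 5 genes of the list per line and direction among those called, the 2 genes of each role with the highest “Vec” mean, and the 3 genes most like each member. SP5 and LRP6 were named after their values were seen.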

Additional observations from a re-analysis of the deposited data

Results flagged for a closer look

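The response to WWOX (log2 fold change, “WWOX” versus “Vec”) in each line was compared with the mean response of the other 3 lines. For 8 of the 66 tested genes of the Wnt list it differed in at least 1 line by limma's test of the difference (Benjamini-Hochberg adjusted p under 0.05). Of the 9 members this was WNT5A, with -1.54 in U87MG. Also in U87MG, the difference was -1.69 for PTK7, -1.46 for CTNNBIP1, 1.47 for TLE1, 2.88 for SFRP2, 1.35 for RSPO3 and 1.08 for WNT7A. WNT7A had 0 tags in all U87MG libraries, so its value there is the reverse side of its fall in DBTRG-05MG, where the difference was -2.56. SOST had 2.21 in T98G, and PTK7 1.48 in DBTRG-05MG, where its own estimate (0.66, adjusted p = 0.597) was not called. For SFRP2, RSPO3, SOST and WNT7A no library of the other lines was above 1.90 CPM, and the test of the difference then rests on 1 line. The list had 7 such calls for U87MG, beside 2.39% of all genes tested. It had 2 for DBTRG-05MG (0.982%), 1 for T98G (1.54%) and 0 for U251MG (0.422%). The list was chosen with earlier results of these data known, so nothing is drawn from these counts.

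These differences depended on the setting. That of WNT5A was lost in 4 other settings and without any 1 of 16 libraries, that of CTNNBIP1 in 3 settings and without any 1 of 17 libraries, and that of PTK7 in DBTRG-05MG in 4 settings and without any 1 of 15 libraries. That of WNT7A in DBTRG-05MG was lost by edgeR, limma-voom and DESeq2 (adjusted p of 0.0957 to 1.00), and that of WNT7A in U87MG in 6 settings and without any 1 of 11 libraries. That of SOST was lost in 3 settings and without either of 2 libraries, that of RSPO3 in 3 settings and without any 1 of 4 libraries, with its sign turned by edgeR, and that of SFRP2 by edgeR (adjusted p = 1.00). Those of PTK7 and TLE1 in U87MG were kept in all settings and with each library left out.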

How the results depend on the processing

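The 2 calls of members in U87MG were 1 with a pseudocount of 0.1, no filter, a mean of 5 CPM, unscaled CPM, edgeR or limma-voom, and 0 in a separate model, and ran from 0 to 2 as libraries were left out. In U251MG DESeq2 called 1 (0 to 1 as libraries were left out). In T98G, DBTRG-05MG and the mean of the 4 lines the count was 0 throughout. The 1 call among differences between lines was 0 with no filter, a mean of 5 CPM, unscaled CPM and edgeR, 2 by DESeq2, and 0 to 2 as libraries were left out. The 37 calls between “Vec” groups ran from 35 to 38. Of the Wnt list, the 7 calls in U87MG were 4 at a mean of 5 CPM, 2 in a separate model and 4 by edgeR (4 to 7 as libraries were left out). The 2 in T98G were 1 with a pseudocount of 0.1 or limma-voom, and 0 at a mean of 5 CPM, in a separate model, by edgeR or by DESeq2 (1 to 3). The 0 in U251MG was 1 with no filter or DESeq2 (0 to 2). The 1 in DBTRG-05MG was 2 with no filter, a separate model or DESeq2, and 0 at a mean of 5 CPM, where WNT7A was not tested. Other causes were not tested.

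With the replicate number as a block, 0 members were called in U87MG (DKK3 adjusted p = 0.0945, AXIN2 0.0786, limma) and 1 gene of the Wnt list in T98G. The numbers do not pair the samples: same-numbered libraries deviated together (r above 0.1) in 4 of 12 pairs, with r from -0.55 to 0.51, and correlated best with their own number in 3 of them.

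Signs turned only in estimates that were not called, except RSPO3. WNT5B in U87MG was -0.052 by edgeR and -0.059 by DESeq2, and its difference from the other lines 0.0082 with a pseudocount of 0.1, 0.017 with unscaled CPM and 0.067 by limma-voom. The mean over the lines was -0.0079 (pseudocount 0.1) and -0.14 (limma-voom) for WNT7B, and 0.29 (edgeR) and 0.058 (DESeq2) for SFRP1. The DBTRG-05MG difference of WNT7B was -0.061 (edgeR) and -0.092 (DESeq2). With unscaled CPM, DKK3 was 0.019 in DBTRG-05MG and -0.13 for T98G against DBTRG-05MG, the U87MG difference of LEF1 was 0.00055, and WWOX in U251MG was 0.0066 (0.087 by edgeR, 0.018 by limma-voom, 0.077 by DESeq2). AXIN2 in T98G was 0.0068 by median-of-ratios scaling and 0.014 by DESeq2. The U87MG difference of RSPO3, which had almost no tags elsewhere, was -0.27 by edgeR. Leaving out single libraries turned the sign of 31 of 159 estimates, given as ranges over the libraries left out. Those of WNT5B were for U87MG (-0.20 to 0.37), U251MG (-0.56 to 0.095), DBTRG-05MG (-0.13 to 0.41) and the mean of the 4 lines (-0.053 to 0.12), for the difference from the other lines of U87MG (-0.24 to 0.33) and DBTRG-05MG (-0.14 to 0.41), and for the “Vec” levels of U87MG against DBTRG-05MG (-0.040 to 0.52). Those of WNT7B were for U87MG (-0.52 to 0.46), T98G (-0.20 to 0.16), U251MG (-0.39 to 1.14) and the mean of the 4 lines (-0.12 to 0.27), for the difference from the other lines of U87MG (-0.67 to 0.31), T98G (-0.46 to 0.069), U251MG (-0.36 to 1.17) and DBTRG-05MG (-0.13 to 0.38), and for the “Vec” levels of U251MG against DBTRG-05MG (-0.38 to 0.044). Those of SFRP1 were for U251MG (-0.65 to 0.47), for the difference from the other lines of T98G (-0.63 to 0.015) and U251MG (-0.020 to 1.10). Those of DKK1 were for U87MG (-0.34 to 0.30), for the difference from the other lines of U87MG (-0.13 to 0.51). Those of DKK3 were for U251MG (-0.063 to 0.16) and DBTRG-05MG (-0.26 to 0.12), and for the “Vec” levels of T98G against DBTRG-05MG (-0.13 to 0.20). Those of FZD7 were for the mean of the 4 lines (-0.015 to 0.19). Those of LEF1 were for DBTRG-05MG (-0.21 to 0.23), for the difference from the other lines of U87MG (-0.21 to 0.056). Those of AXIN2 were for T98G (-0.13 to 0.086) and U251MG (-0.087 to 0.46), and for the “Vec” levels of U87MG against T98G (-0.0096 to 0.47). Those of WWOX were for U251MG (-0.30 to 0.23).

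With unscaled CPM the median log2 difference of all genes moved by -0.20 to -0.15 in 4 pairs of “Vec” groups (those of U251MG or DBTRG-05MG with U87MG or T98G), and by less than that in the other contrasts. Depth limits members at few tags (WNT7B in T98G and SFRP1 in U87MG had at most 4 in any library), and 3 libraries per group limit all tests.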

Other observations

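LRP5, a co-receptor that canonical Wnt ligands and DKK1 both use, was close to the detection floor in U87MG, with means of 0.0962 ± 0.0383 CPM in “Vec” and 0.0509 ± 0.0448 CPM in “WWOX” (SD, n = 3). The 6 groups of the other lines had means of 26.0 to 49.8 CPM. Its paralog LRP6 was present in all groups, with 7.30 ± 1.78 CPM in U87MG “Vec”, 13.2 ± 4.05 CPM in T98G “Vec”, 9.90 ± 2.03 CPM in U251MG “Vec” and 30.0 ± 2.30 CPM in DBTRG-05MG “Vec”. U87MG was thus the line with the lowest LRP5, SFRP1 and DKK3 and the highest WNT7B.

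Over the mean of the 4 lines, 3 of the 66 tested genes of the Wnt list were called, beside 1.78% of all genes, and none was a member. SP5, a nuclear target gene of beta-catenin, had an estimate of -0.80, TLE1 of 0.52 and WNT7A of -0.81 (limma). The means of SP5 in “Vec” and “WWOX” were 3.79 and 1.69 CPM in U87MG, 0.955 and 0.442 CPM in T98G, 0.181 and 0.0454 CPM in U251MG, and 1.07 and 0.126 CPM in DBTRG-05MG. The libraries of T98G and of U251MG overlapped, both means of U251MG and the “WWOX” mean of DBTRG-05MG were under the floor of 3 tags per library (1 U251MG “Vec” library had 0.477 CPM), and SP5 entered the test through 1 U87MG “Vec” library at 5.95 CPM. Its call was lost by edgeR (adjusted p = 0.0583) and limma-voom (0.0536) and without T98G “Vec” replicate 1 or U251MG “Vec” replicate 2 (0.0524 to 0.0543). TLE1 lost its call without any 1 of 18 libraries, and WNT7A by edgeR, limma-voom and DESeq2, its mean resting on DBTRG-05MG. AXIN2, the member that is a target of the same kind, had a mean estimate of -0.37 (adjusted p = 0.258).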
